A study of Bos taurus with 4 samples.

Results

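The genes described here form the core machinery of regulated cell death: the BCL2 family, the caspases, the inhibitors of apoptosis proteins (IAPs) and their antagonists, the death receptors with their adaptors, the stress kinase ASK1, the factor PAR4 and the proteins that cut nuclear DNA. A list of 40 bovine genes was set by symbol, with earlier results of these data known. A listed gene entered whatever its values if a probe on the array carried an accession of that gene. Probes were found for 31 of the 40 listed genes (60 probes), out of 11055 genes named on the array. Of these, 29 genes with 57 probes were bright enough to be tested, out of 9426 genes tested in all. No probe was matched here for *bcl2l13*, *bbc3*, *pmaip1*, *casp1*, *casp9*, *apaf1*, *xiap*, *birc2* and *birc6*, so these 9 genes were not analysed here. *Bmf* and *casp2* had a probe that failed the filter on dim probes: *bmf* was well above background in Cy5 on 3 arrays and in Cy3 on 0, and the *casp2* probes in Cy5 on 2 and 0 arrays and in Cy3 on 0.

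Gene expression was measured in the semitendinosus muscle, a hind limb muscle, of 15-month-old bulls of the beef breed Hereford (HER) and of the dairy breed Holstein-Friesian (HF), with 4 bulls per breed and no treatment. Each of 4 dual-colour arrays held RNA of 1 HER bull and 1 HF bull, labelled with the dyes Cy3 and Cy5, and all 4 arrays lay on 1 slide. The RNA came from the central part of the muscle, cleared of visible fat and connective tissue after slaughter, so it holds every cell type that remained, and fewer cells of a type cannot be told apart from less RNA per cell. Of 20 listed skeletal muscle marker genes, 17 were tested, and all 17 were well above background in both channels on all 4 arrays.

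Every value below is a log2 ratio of Cy5 over Cy3, and its breed direction is not settled. By the sample labels the Cy5 channel held the HF bulls, whereas a remark on exchanged dyes in those labels and the signs in the tables of the study put the HER bulls there. As the dyes ran the same way on all 4 arrays, breed and dye cannot be told apart, and genes are therefore called higher or lower in the Cy5 sample. The p-values measure the spread among these 4 arrays, each holding a different bull of each breed. The median spot signal was 129 to 160.5 in Cy5 and 77 to 138 in Cy3, 76.7% to 82.1% of spots were well above background in Cy5 and 65.2% to 76.3% in Cy3, no spot was saturated (0 on every array), and the log2 ratios of any 2 arrays correlated across tested probes with r between 0.33 and 0.62.

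Apoptosis can start inside or outside the cell. In the mitochondrial route, BH3-only proteins relieve or overcome the anti-apoptotic BCL2 proteins, BAX and BAK1 open the outer mitochondrial membrane, and proteins that leave through it switch on caspases, cut back the IAPs and damage DNA. In the receptor route, ligands such as TNF or the FAS ligand assemble adaptors on a death receptor, which either activate caspase 8 or lead to survival and stress signals. In skeletal muscle, whose fibres hold many nuclei, the same proteins are known from the loss of single nuclei during disuse, ageing and wasting.

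None of the 57 tested probes passed the test (0 at an adjusted p under 0.05, limma), where 3.31% of all 32606 tested probes did. The smallest adjusted p was 0.0521, for *ripk1*. At an unadjusted p under 0.05 there were 12 of the 57 probes, all 12 higher in Cy5, where 13.8% of all tested probes were higher and 10.9% lower at that level. Among the 12, *pawr* and the dimmer *bid* probes passed the filter through Cy5 alone, the channel in which they were higher. With both channels required above background, 9 probes reached that level. The methods' t-test called 0 of all tested probes after adjustment, so its 0 among the members says nothing about them in particular. It put 14 of the 57 at an unadjusted p under 0.05, a count that was not set against all probes. A fit of the separate channels called 6 probes of 5 genes (*map3k5*, *ripk1*, *bcl2l1*, *fadd* and *bid*), all higher in Cy5. That fit called 5.33% of all probes in that direction. Its *bid* call was at a dimmer probe that passed the filter through Cy5 alone (adjusted p = 0.0425), while the brightest *bid* probe had 0.331. The study used a looser criterion (unadjusted p up to 0.05, fold change from 1.3 upwards), which was met by 5 probes of 4 genes, all higher in Cy5: *bcl2l1* with 2 probes, *ripk1*, *map3k5* and *htra2*. That criterion took 7.96% of all tested probes in this direction and 6.48% in the other. The count of 5 became 8 without array 1 and 3 without array 2.

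At the brightest probe of each gene, log2 ratios ran from -0.17 for *bcl2* to 0.60 for *map3k5*, with a median of 0.08 over the 29 genes and 0.02 over all tested genes. Of the 29, 19 lay above 0 and 10 below, and 18 were smaller than 0.2 in size, against 56.3% of all genes. The 4 arrays went the same way for 10 genes, 9 higher in Cy5 (*bcl2l1*, *mcl1*, *bid*, *htra2*, *fadd*, *tnfrsf1a*, *ripk1*, *map3k5* and *pawr*) and 1 lower (*bak1*), where 34.2% of all genes went 1 way on 4 arrays. The Cy5 and Cy3 levels did not overlap for *tnfrsf1a*, *map3k5* and *pawr*, that is 3 of 29 genes, where 16.0% of all genes showed no overlap. Of these, *pawr* passed the filter through Cy5 alone, and its mean was -0.01 with median centring. The SD between arrays had a median of 0.23, the same as over all genes. With 4 arrays the 95% interval lay within 1 log2 unit of 0 for 28 of the 29 genes, *fas* being the exception (90.6% of all genes), and within 0.5 for 18. The smallest change that passed the test anywhere on the array was 0.40.

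**Figure D1:**
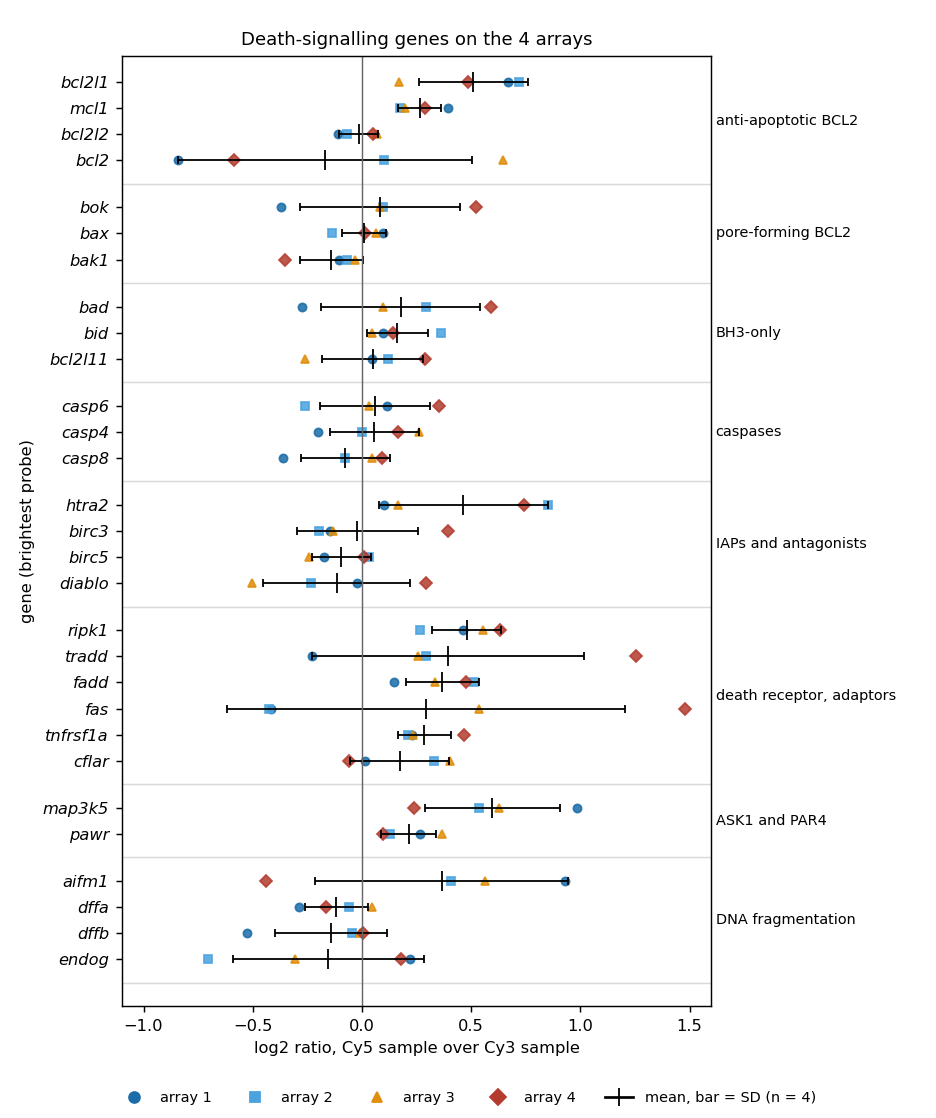
Log2 ratio of Cy5 over Cy3 for the brightest probe of each of the 29 tested genes, grouped by role, with a symbol per array and the mean with SD (n = 4) as a tick and bar. The death receptor and adaptor genes have means between 0.17 and 0.48, while *bcl2* and *fas* spread over the widest ranges.

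All 57 probes passed the filter through Cy5, and 11 of them (19.3%) through Cy5 alone, as did 16.5% of all tested probes. At the brightest probes these were *cflar* and *pawr*, well above background in Cy3 on 1 array each, and *birc5*, on 3. The normalization moved the whole set. After loess, which removes a trend of the ratio with intensity, the median over all tested genes was 0.02, whereas centring each array on its median left 0.43, and the median of the 29 genes went from 0.08 to 0.45. Of the 29 genes, 18 lay above the median of all genes after loess and 15 with centring. With centring 18 of the 57 probes were called, all higher in Cy5, where 30.7% of all probes were called in that direction. They covered 14 of the 29 genes at the brightest probe, against 43.7% of all genes. Of all calls on the array, 59.3% were higher in Cy5 after loess and 93.4% with centring. The sign changed for 7 of the 29 genes: *bcl2*, *bcl2l2*, *birc3*, *diablo* and *endog* turned above 0, and *pawr* and *cflar* below.

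Among the anti-apoptotic BCL2 proteins, which hold BAX and BAK1 in check, *bcl2l1* (encoding BCL-XL) and *mcl1* were higher in the Cy5 sample on every array without passing the test, and *bcl2l2* and *bcl2* lay near or below 0. The log2 ratio of *bcl2l1* was 0.67, 0.72, 0.17 and 0.49 on arrays 1 to 4. Its normalized log2 intensity was 11.39, 11.27, 10.66 and 11.04 in Cy5 against 10.72, 10.55, 10.49 and 10.55 in Cy3. The Cy3 bulls thus lay close together, and 3 of the 4 Cy5 bulls above all of them. The mean was 0.51 ± 0.25 (SD, n = 4), a 1.42-fold difference with a 95% interval of 0.23 to 0.79 on the log2 scale (adjusted p = 0.0655). A second probe of the gene gave 0.43 (adjusted p = 0.0714), with no overlap between the channels, and the dimmest one gave 0.06. *Bcl2l1* is held by the gene tables of the study, as are *bak1*, *pawr* and *map3k5*. Those tables were drawn from these same arrays and from arrays of the beef breed Limousin (LIM). The values of these genes here are therefore not independent evidence of a change. By the limma fit *bcl2l1* and *map3k5* met the study's criterion, and *bak1* and *pawr* did not.

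*Mcl1*, a survival protein with a short life, read 0.39, 0.17, 0.20 and 0.29, with a mean of 0.26 ± 0.10 (adjusted p = 0.115). Its 2 dimmer probes gave -0.04 and 0.02, so the difference was seen at 1 of 3 probes. *Bcl2l2* (BCL-W) read -0.01 ± 0.09 and its other probes -0.01 and -0.04. *Bcl2*, the founding member of the family, split the arrays: -0.84, 0.10, 0.65 and -0.59, a mean of -0.17 ± 0.67 (adjusted p = 0.728) that became 0.05 without array 1. Under median centring *bcl2l2* and *bcl2* turned to 0.45 and 0.42.

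**Figure D2:**
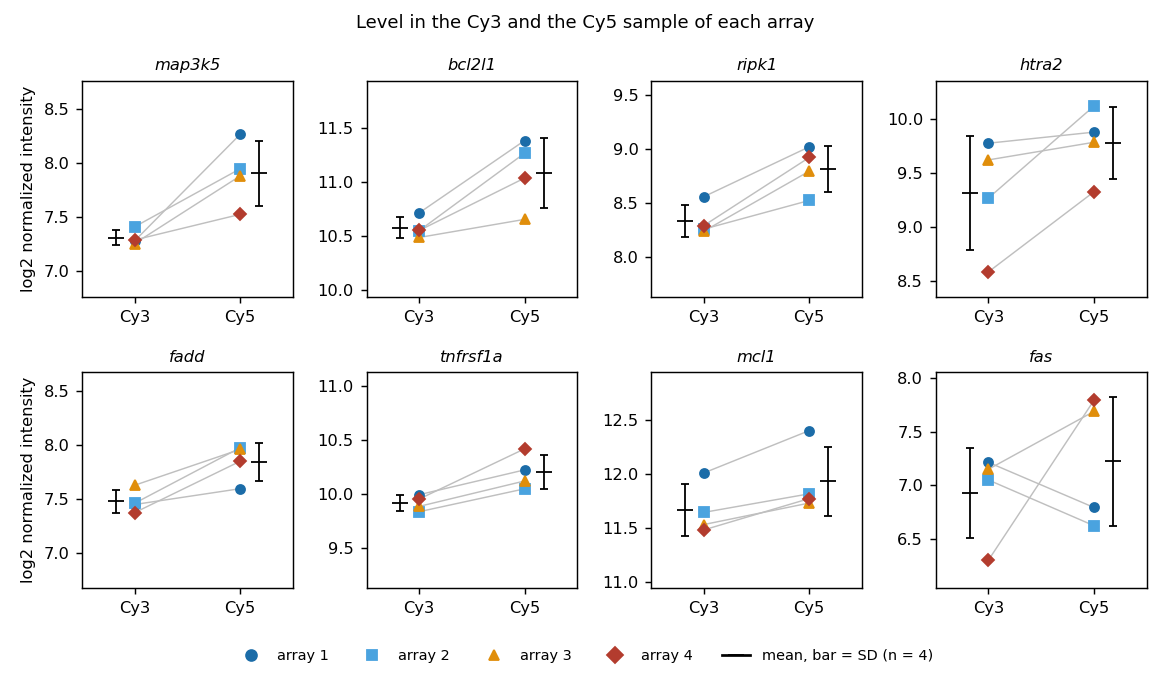
Normalized log2 intensity in the Cy3 and the Cy5 sample of each array (grey lines join the 2 bulls of an array) at the brightest probe of 8 genes, with the mean and SD over the 4 bulls of a channel, on axes of equal span. The Cy5 bulls lie above all Cy3 bulls for *map3k5* and *tnfrsf1a*, and the lines of *fas* cross.

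The pore-forming proteins were close to 0. *Bax* gave 0.01 ± 0.10 and *bok*, a relative with a less settled role, 0.08 ± 0.37. *Bak1* was the member with the lower ratio on every array, at -0.11, -0.07, -0.03 and -0.35, and a mean of -0.14 ± 0.14 (adjusted p = 0.385). It was dim, and its mean was -0.33 with plain subtraction of the background and -0.39 with the scanner's processed signals, again not called.

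The BH3-only proteins, which sense damage and pass it to the rest of the family, gave small positive means at the brightest probes. *Bid*, which caspase 8 cuts to link the receptor route to mitochondria, read 0.10, 0.36, 0.05 and 0.14, a mean of 0.16 ± 0.14 (adjusted p = 0.313). Its 2 dimmer probes gave 0.20 and 0.28, and all 3 probes were higher in Cy5 on every array. Both dimmer probes passed the filter through Cy5 alone, the channel in which they were higher. *Bad*, which growth factor signals hold inactive by phosphorylation, was uneven, at -0.28, 0.29, 0.10 and 0.59, with a mean of 0.18 ± 0.36 (adjusted p = 0.516) and means of 0.06 and -0.08 at the other probes. *Bcl2l11* (BIM) gave 0.05 ± 0.23.

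No caspase stood out. *Casp8*, the initiator of the receptor route, gave -0.08 ± 0.20 at its brightest probe and -0.12, 0.13 and 0.10 at the other 3. *Casp6*, an executioner, gave 0.06 ± 0.25 and -0.01. *Casp4*, an inflammatory caspase that answers bacterial lipopolysaccharide, gave 0.06 ± 0.20, with -0.28 and 0.02 at its other probes. The probe at -0.28 was lower in Cy5 on all 4 arrays (adjusted p = 0.215). The probes of *casp8* and of *casp4* thus disagreed in sign. The *casp8* probes at 0.13 and 0.10 passed the filter through Cy5 alone, the channel in which they were higher. Those at -0.08 and -0.12 were well above background in both channels.

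The IAPs block caspases or steer receptor complexes towards survival. *Birc3* (cIAP2) gave -0.02 ± 0.28 and between -0.01 and 0.08 at its other 3 probes, and *birc5* (survivin), a protein of dividing cells, gave -0.09 ± 0.13. Of the mitochondrial proteins that free caspases from IAPs, *diablo* gave -0.12 ± 0.34 and -0.08, and *htra2*, a serine protease, was the higher in Cy5. The *htra2* ratio was 0.10, 0.85, 0.16 and 0.74, with Cy5 intensities of 9.88, 10.12, 9.79 and 9.33 and Cy3 intensities of 9.78, 9.27, 9.62 and 8.59. Arrays 2 and 4 carried most of the mean of 0.46 ± 0.39 (adjusted p = 0.138). They were also the highest 2 arrays at both other probes, which gave 0.33 and 0.27. On array 4 both bulls had their channel's lowest *htra2* level.

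All 6 tested genes of death receptors and their adaptors had a mean above 0 at the brightest probe, as did 54.3% of all tested genes. Of the 6, *cflar* passed the filter through Cy5 alone, the channel in which it was higher. The median of the 6 was 0.33 beside 0.02 over all genes, while *casp8*, the initiator of the same route, gave -0.08. None of the 6 passed the limma test (0 of 6, with 3 at an unadjusted p under 0.05, and *ripk1* and *fadd* called by the separate-channel fit). Over all probes, 13.8% were higher at that unadjusted level, and 5.33% were called higher by that fit. With median centring, which put 78.3% of all genes above 0, 5 of the 6 lay above 0 and *cflar* turned below. *Ripk1*, the kinase that decides between survival and death below the TNF receptor, read 0.46, 0.27, 0.56 and 0.63. Its intensities were 9.02, 8.52, 8.79 and 8.92 in Cy5 and 8.55, 8.25, 8.23 and 8.29 in Cy3. Only the Cy3 bull of array 1 reached into the range of the Cy5 bulls. The mean of 0.48 ± 0.16 was a 1.39-fold difference with an interval of 0.26 to 0.70, and its adjusted p of 0.0521 ran from 0.0985 to 0.146 as each array was left out. A dimmer second probe, well above background in Cy3 on 1 array, gave 0.05.

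*Tnfrsf1a*, the main receptor for TNF, read 0.23, 0.21, 0.24 and 0.47, a mean of 0.29 ± 0.12 (adjusted p = 0.107). The 4 Cy5 bulls lay between 10.05 and 10.42 and the 4 Cy3 bulls between 9.84 and 9.99, so the channels did not overlap although the difference was small. *Fadd*, the adaptor that brings caspase 8 to the receptor, read 0.15, 0.51, 0.33 and 0.48. Its mean of 0.37 ± 0.17 (adjusted p = 0.0820) fell just under the 1.3-fold threshold of the study. *Cflar* (c-FLIP), which blocks caspase 8 at that place, was near the detection limit and read 0.01, 0.33, 0.41 and -0.06, a mean of 0.17 ± 0.23 (adjusted p = 0.385). That value was 0.81 with plain subtraction, 0.72 with the scanner's processed signals and -0.16 with median centring.

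*Tradd* and *fas* had the largest SD of the 6 genes, and both lay below 0 on array 1 and highest on array 4. *Tradd*, the first adaptor on the TNF receptor, read -0.23, 0.29, 0.26 and 1.25, a mean of 0.39 ± 0.62 (adjusted p = 0.358) that was 0.11 without array 4, and its dimmer probe gave 0.08. *Fas*, the receptor of the FAS ligand, read -0.42, -0.42, 0.54 and 1.48. Its Cy5 intensities were 6.80, 6.63, 7.69 and 7.79 and its Cy3 intensities 7.21, 7.05, 7.15 and 6.31. Bulls of the same channel therefore differed more than the channels did, and the mean of 0.29 ± 0.91 (adjusted p = 0.640) became -0.10 without array 4. Macrophage marker genes were highest on the same array, with a median log2 ratio of 0.12, 0.75, 0.37 and 1.35 on arrays 1 to 4. Their part in the *fas* and *tradd* values was not tested.

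The stress kinase *map3k5* (ASK1), which activates the JNK and p38 kinases under oxidative stress and TNF, had the highest mean of the group. It read 0.99, 0.54, 0.63 and 0.24, with Cy5 intensities of 8.27, 7.95, 7.88 and 7.53 and Cy3 intensities of 7.28, 7.41, 7.26 and 7.29. The Cy3 bulls differed by little, all Cy5 bulls lay above them, and array 4 was the closest. The mean of 0.60 ± 0.31 was a 1.51-fold difference with an interval of 0.28 to 0.92 (adjusted p = 0.0638). It was called by the separate-channel fit (adjusted p = 0.0260), with an intensity trend and a robust prior (0.0482) and with median centring (0.0113), while over all 14 alternatives the adjusted p ran from 0.0113 to 0.241. Its dimmer probe gave 0.24 (adjusted p = 0.263). *Pawr* (PAR4), which can sensitize cells to death, was dim and read 0.27, 0.13, 0.37 and 0.10, a mean of 0.21 ± 0.13 (adjusted p = 0.190). Its value was 0.66 with plain subtraction, 0.65 with the scanner's processed signals and -0.01 with median centring.

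Among the genes of DNA fragmentation, *aifm1*, a flavoprotein of the respiratory chain that moves to the nucleus in dying cells, read 0.93, 0.41, 0.56 and -0.44, a mean of 0.37 ± 0.58 (adjusted p = 0.363). Array 4 was the lowest at all 3 of its probes, whose other means were 0.18 and 0.13. The caspase-activated DNase *dffb* gave -0.14 ± 0.26 (adjusted p = 0.502). Its inhibitor *dffa* read -0.29, -0.06, 0.05 and -0.17, a mean of -0.12 ± 0.14 (adjusted p = 0.468). The *dffb* mean rested on array 1, at -0.53, the other arrays lying between -0.04 and 0.01. *Endog*, a mitochondrial nuclease, read 0.22, -0.70, -0.31 and 0.18, with a mean of -0.15 ± 0.44, and turned to 0.47 with median centring.

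The 16 genes with more than 1 tested probe (44 probes) allowed the probes to be compared. For 10 of the 16 genes all probes had 1 sign, a count that was not set against all genes. The dimmer probes of *bid*, *map3k5*, *ripk1* and *tradd*, all above 0, passed the filter through Cy5 alone. So did a *bcl2l2* probe at -0.04 and the *casp8* probes at 0.13 and 0.10. The brightest probe had the largest ratio in size for 11 of the 16, against 55.3% of the 5739 such genes on the array. *Bcl2l1*, *htra2*, *bid* and *aifm1* were positive at all 3 of their probes, whereas *mcl1*, *casp4*, *casp8* and *bad* had probes on both sides of 0.

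**Figure D3:**
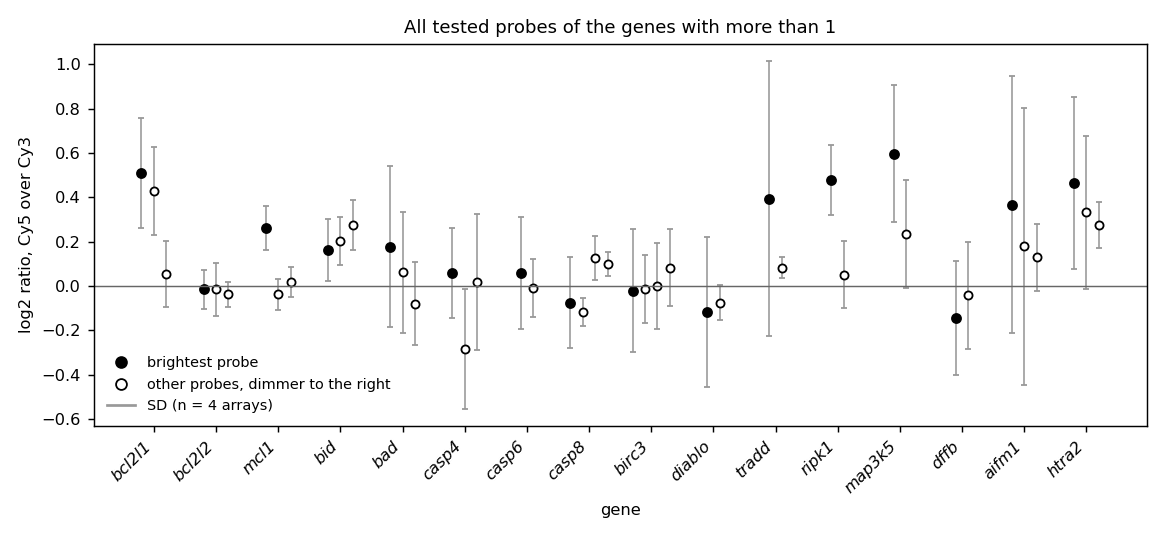
Mean log2 ratio of Cy5 over Cy3 with SD (n = 4 arrays) for all 44 tested probes of the 16 genes with more than 1, filled at the brightest probe and open at the dimmer ones. The dimmer probes of *ripk1*, *mcl1* and *tradd* lie near 0 while the brightest does not.

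The processing moved dim probes and bright probes in different ways. Median centring raised the bright probes and lowered many of the dim ones, changing the sign of 20 of the 57 probes. Plain subtraction left the bright probes in place and enlarged the ratios of the dim ones, such as *map3k5* from 0.60 to 0.92 and *fadd* from 0.37 to 0.52. Neither of the background alternatives (plain subtraction or the scanner's processed signals) called a member, and with no background correction 1 probe was called, the second of *bcl2l1*, at 0.56 (adjusted p = 0.0448).

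**Figure D4:**
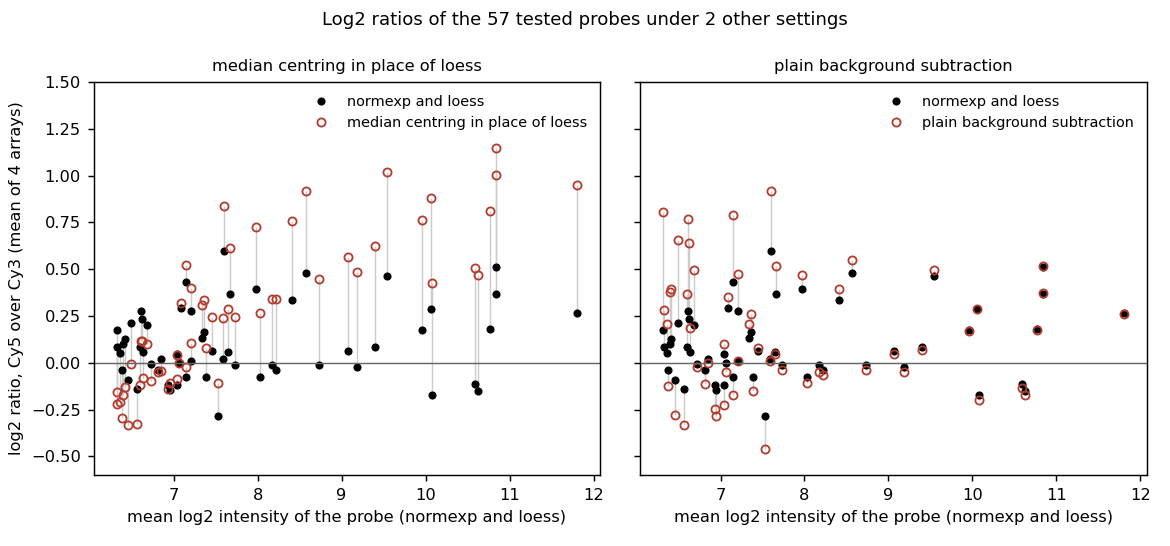
Mean log2 ratio of Cy5 over Cy3 of the 57 tested probes against their mean log2 intensity, with normexp and loess (filled) and with 1 other setting per panel (open), joined by a grey line. Centring in place of loess lifts the bright probes, and plain subtraction widens the ratios of the dim ones.

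Other genes of the same pathways were read at their brightest probe from 6 lists of 135 genes, 90 of them tested. Of the 90, 8 passed the test (8.89%, against 4.42% of all tested genes), 4 higher and 4 lower in Cy5, and the 90 had a median of 0.04. The lists were chosen with earlier results of these data known, so these shares are not an independent comparison. The count of 8 became 3 without array 1 and 0 without array 2, 3 or 4. In the list of further BCL2 family members and partners (21 tested), *bnip3*, a mitochondrial protein that recruits autophagy under low oxygen, was higher. It read 0.65, 1.53, 1.05 and 1.42, a mean of 1.16 ± 0.40 (adjusted p = 0.0332). A second probe of *bnip3* gave 0.55 (adjusted p = 0.0508). *Vdac3*, a channel of the outer mitochondrial membrane, was higher at 0.48 ± 0.08 (adjusted p = 0.0419) and at its 2 other probes (0.59 and 0.55). *Bnip2*, which binds BCL2, was lower at -0.55 ± 0.18 (adjusted p = 0.0458), a value of -0.02 with median centring.

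Of 10 tested genes in a list of damage response genes, 2 were lower in Cy5. *Mdm2*, a ubiquitin ligase, read -1.71, -1.06, -1.14 and -1.03, a mean of -1.24 ± 0.32 (adjusted p = 0.0257), and was -0.63 with median centring. Its 2 other probes gave -0.62 (adjusted p = 0.0880) and -0.94 (adjusted p = 0.0425). *Ccng1*, a cyclin, was lower at -0.54 ± 0.13 (adjusted p = 0.0407) and at its 3 other probes, but turned to 0.37 with median centring.

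Among 17 further death receptor and TNF signalling genes, 1 was higher, the adaptor *traf5*, at 0.60, 1.53, 0.73 and 1.41 with a mean of 1.07 ± 0.47 (adjusted p = 0.0441). Its 3 dimmer probes gave 0.70, 0.51 and 0.25. Of 15 genes of other kinds of programmed cell death, the kinase *dapk3* was higher at 0.82 ± 0.26 (adjusted p = 0.0344), with 0.07 at a second probe. *Ccar1*, a coactivator that regulates cell cycle and apoptosis, was lower at -0.58 ± 0.11 (adjusted p = 0.0344), a value of 0.06 with median centring. None of 13 further caspases and substrates passed the limma test (0, with 3 at an unadjusted p under 0.05 and 1 called by the separate-channel fit). Nor did any of 15 genes around ASK1 and JNK (0, with 7 and 3). Over all probes, 13.8% were higher and 10.9% lower at that unadjusted level, and the separate-channel fit called 5.33% higher. Chosen after their values were seen, *cycs* (cytochrome c) gave -0.51 ± 0.30 (adjusted p = 0.0822) and the JNK kinase *mapk8* 0.42 ± 0.15 (adjusted p = 0.0606).

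Marker genes of other cell types differed between the channels in part. Of 10 tested macrophage markers (12 listed), 1 was called, *cd5l* at 2.07, and 8 lay above 0 with a median of 0.69. A second probe of *cd5l* gave 0.30 (adjusted p = 0.0897). All 10 were well above background in Cy5 on every array and 9 in Cy3. Their mean log2 intensity was 8.75 to 9.42 in the Cy5 bulls and 8.16 to 8.49 in the Cy3 bulls, with no overlap. Of 8 fibroblast markers, 2 collagens were lower (*col1a1* at -2.05 and *col3a1* at -1.68), while 4 of the 8 lay above 0, up to 0.88 for *fbln1*. The median of the list was -0.38, and the list's mean intensity was 11.38 to 12.18 in Cy5 and 11.99 to 12.68 in Cy3. Among 8 adipocyte markers *cfd* was called higher, at 1.49, although 5 of the 8 lay below 0, down to -1.19 for *fabp4*, and the median was -0.21. Among 8 smooth muscle markers *cnn1* was called lower, at -0.79, with 4 of the 8 above 0 and a median of -0.05. A second probe of *cnn1* gave -0.13 (adjusted p = 0.396). No lymphocyte, endothelial, blood or skeletal muscle marker was called by limma (0 of 10, 10, 5 and 17). At an unadjusted p under 0.05 there were 5, 4, 1 and 6, and the separate-channel fit called 1, 1, 0 and 5. Over all probes, 13.8% were higher and 10.9% lower at that unadjusted level, and that fit called 5.33% higher. These lists had medians of 0.10, 0.08, 0.07 and 0.16. Of the 5 blood markers, only *ahsp* and *hba* (-0.07 and -0.05) were well above background in Cy3 on all 4 arrays. *Hbb*, *s100a8* and *slc4a1* (0.34, 0.63 and 0.07) passed the filter through Cy5 alone. The part of these cell types in the values of the death-signalling genes was not tested.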

How the data were processed

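Log2 ratios of 4 dual-colour Agilent bovine arrays (V2, 4x44K design, annotated against Btau_3.1), each of 1 HER and 1 HF bull, were analysed. The LIM arrays were not used here. The authors deposited the intensity values as the scanner gave them: Feature Extraction 10.7.3.1 wrote a median signal and a median local background per spot, marks for outlier spots and for spots well above background, and signals it had processed itself (background subtracted, dyes normalized). The authors also deposited log10 values, taken from the processed signals as Cy5 over Cy3.

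Normexp with an offset of 50 corrected the background, and loess, with control and outlier spots at weight 0, normalized each array. Outlier spots were then dropped and replicate spots averaged per probe. A probe was tested if the same channel was well above background on all 4 arrays and values were present on at least 3. The log2 ratios computed from the deposited intensity values were tested against 0, two-sided, in R 4.3.3 (statmod 1.5.0, and data.table in its version 1.17.8) by lmFit and eBayes from limma 3.58.1. Benjamini-Hochberg adjustment ran over all 32606 tested probes, and calls were made at an adjusted p under 0.05. The 95% intervals come from the same fit. The methods name GeneSpring with a t-test (p up to 0.05, fold change from 1.3), and give no normalization in the sources used here. The procedure was tested on simulated data. The number of arrays limits the precision.

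Probes were named through their accession and RefSeq gene names of the assembly ARS-UCD2.0 (23493 of 43653 probes), and *pawr* through an accession in the supplement of the study. No coordinates are given, as the builds differ. Genes were represented by their brightest tested probe. All members with a tested probe were named, with array values for members that were called, that the gene tables of the study hold, or that were among the 12 others with the smallest p (16 genes), and for *bcl2*, *fas* and *endog*, chosen after their values were seen. Genes of the other lists were named where called. The members and lists were chosen with earlier results of these data known. No sequences are shown, as the files used here give none.

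Alternatives covered the background (none, or plainly subtracted), the signals (processed by the scanner, or the deposited log10 ratios), median centring, the filter (none, or on both channels), the variance (an intensity trend and robust prior), the test (the methods' t-test on the same log2 ratios, or a separate-channel fit), the fold-change threshold (dropped), the probe (a gene's mean over its probes) and the arrays (each left out). For the other pathway genes they were added after the data were seen. A slide block was not run, since all arrays lie on 1 slide.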

Additional observations from a re-analysis of the deposited data

Results flagged for a closer look

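For 6 of the 57 tested probes 1 array stood apart from the other 3, its gap to the nearest of them making up most of the range of the 4 values. Chance alone marks about 1 group in 20 this way. *Aifm1* had array 4 at -0.75 at its second probe, a gap of 0.898 of the range. *Birc3* had array 4 at 0.39 at its brightest probe (0.898 of the range), and *tnfrsf1a* had array 4 at 0.47 at its only probe (0.907 of the range), where the other 3 arrays lay between 0.21 and 0.24. *Bcl2l1* had array 2 at 0.28 at its dimmest probe (0.836 of the range), and *casp6* had array 2 at -0.20 at its second probe (0.907 of the range). *Dffb* had array 1 at -0.53 at its brightest probe, a gap of 0.903 of the range. None of these probes was called.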

How the results depend on the processing

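The count of 0 called death-signalling probes became 1 with no background correction, 1 with an intensity trend and a robust prior, 6 in the separate-channel fit and 18 with median centring, and stayed 0 in the other alternatives, including without each array (0 to 0). The 5 probes at the study's criterion became 13 with plain subtraction, 12 with the scanner's processed signals, 12 with the series table, 20 with median centring and 12 with no fold-change threshold, and 3 to 8 without 1 array. The 8 called genes of the other pathway lists became 5, 4, 4 and 46 under the first 4 of these settings, 19 in the separate-channel fit, 0 with the methods' t-test and 0 to 3 without 1 array. The 1078 called probes of the whole array became 10725 with median centring, 1666 with the trend, 3199 in the separate-channel fit, 0 with the methods' t-test and 5 to 115 without 1 array. Of the 16 genes that the naming rule gave array values, *pawr* at -0.0077 and *cflar* at -0.16 changed sign, both with median centring. Of the 3 added later, *bcl2* turned to 0.05 without array 1 and 0.42 with centring, *endog* to 0.03 without array 2 and 0.47 with centring, and *fas* to -0.10 without array 4. The causes were not tested.

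With any array left out, 0 of these 16 genes were called. The filter on both channels left out *pawr* and *cflar*. The ratio within an array already pairs its 2 bulls, so there was no replicate number left to set as a block. Without dye-swapped arrays, signs cannot be assigned to a breed, and signal close to background limits *cflar*, *pawr* and *birc5*.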
